A study of Mus musculus with 8 samples.

Results

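IgE+ clone 18 was compared with the IgM+ line, so that stable transfectants of A20 carrying membrane immunoglobulin of different classes stood on both sides. A20 is an established mouse B lymphoma line of mature B cell type. The comparison took the 2 arrays labelled IgE+ clone 18 and the 2 arrays labelled IgM+ from a series of 8 arrays, chosen by their sample titles. The other 4 arrays, from untransfected A20 cells and from IgE+ clone 41, shared the estimate of the spread between arrays and are quoted only beside results of the comparison. The design text of the series names the question of what membrane IgE does to the transcriptome of such a cell, with untransfected or IgM+ cells as controls.

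All 4 lines grew under 1 set of conditions, at 500000 cells/mL in RPMI. To this medium 10% serum had been added, along with beta-mercaptoethanol at 50 µM. Each array received Cy3-labelled material made from 1 µg of RNA. No agent was added to some groups and not to others, per the labels. Clone 18 is 1 clone, and the labels do not say whether the IgM+ line is a clone, so the class of the transfected receptor and the history of each line cannot be told apart. Nothing in the labels states whether both arrays of a line stem from different cultures. The p-values therefore measure only the spread between arrays, which may be technical.

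Membrane immunoglobulin sits at the B cell surface as heavy and light chains joined to the signalling pair Cd79a and Cd79b, and together they form the B cell receptor. The constant region of the heavy chain sets the class, mu for IgM and epsilon for IgE, and the variable regions bind antigen. IgE is the class of allergy and defence against parasites, and B cells that carry it on their membrane are rare. A20 cells are known for an IgG2a receptor of their own with a kappa light chain.

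Levels are given as log2 of the processed signal of a probe relative to the 75th percentile of its array, so that 0 is the 75th percentile and each unit is a doubling. That percentile was an intensity of 655.9 and 583.8 on the IgM+ arrays and 489.6 and 493.1 on the clone 18 arrays. Between 49.7% and 58.9% of the spots of the 8 arrays were well above background by the scanner's own flag. The SD of the difference between the 2 arrays of a line, over 17358 genes, was 0.36 for IgM+ and 0.32 for clone 18, against 0.65 for untransfected cells and 0.37 for clone 41. All 8 arrays shared 1 slide and 1 scan, and each line filled its own column of the slide, so the position on the slide and the line cannot be told apart. A gene was called where limma's moderated test gave a Benjamini-Hochberg adjusted p under 0.05 and the difference was at least 2-fold. Every adjusted p below comes from that test over all genes, or over all probes where single probes are described.

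The probes for the heavy chain constant regions come first, because they bear on the transfected genes themselves. They are 60 bases long and lie on the minus strand of chromosome 12 in build mm9, at chr12:114659630-114659689 for mu, chr12:114509504-114509563 for epsilon, chr12:114567263-114567322 for gamma 1 and chr12:114597942-114598001 for the expressed sequence AI324046. The epsilon probe is described in the files only as a predicted gene, Gm900, which the RefSeq table lists as a synonym of Ighe. Whether the transfected constructs hold the bases of these probes is not given in the sources used here. Exon, intron and UTR annotation of that build was not used here. The capitals mark the longest run shared by the gamma 1 and AI324046 probes, 13 bases.
mu: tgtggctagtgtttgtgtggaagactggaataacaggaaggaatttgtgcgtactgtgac
epsilon: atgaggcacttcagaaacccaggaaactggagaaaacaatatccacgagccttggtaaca
gamma 1: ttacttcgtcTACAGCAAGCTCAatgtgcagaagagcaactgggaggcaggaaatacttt
AI324046: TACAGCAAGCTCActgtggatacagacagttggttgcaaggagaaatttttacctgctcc

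The mu probe was at 4.88 and 4.64 on the IgM+ arrays and at 3.65 and 3.80 on the clone 18 arrays, so the groups did not overlap. It fell by 1.04 ± 0.19 (SE) on the log2 scale in clone 18, with an adjusted p of 0.0188 over all probes. It was also bright without the transfected chain, at 3.97 and 4.29 in untransfected cells and 3.93 and 3.94 in clone 41. The call on mu was lost without any 1 of the 4 arrays, with an adjusted p from 0.0581 to 0.127.

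The epsilon probe, which reads the class that clone 18 is labelled with, did not separate the lines. It was at 0.09 and 1.02 on the IgM+ arrays and at 0.48 and 0.36 on the clone 18 arrays, which lay between the IgM+ values. The difference was -0.13 ± 0.41 (SE; adjusted p = 0.871). Untransfected cells stood at -1.21 and -0.31 and clone 41 at -0.13 and 0.40. The label of clone 18 as IgE+ was therefore not borne out by this probe, and the probe checks the label only if the construct holds its bases.

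The gamma 1 and AI324046 probes moved in opposite directions. The gamma 1 probe was at 2.70 and 2.97 on the IgM+ arrays and was not well above background on either clone 18 array, which makes it at least 178.5-fold lower in clone 18 (adjusted p = 0.00339). Untransfected cells were at -3.26 and -5.75 on this probe, and clone 41 was not well above background. IgM+ was thus the line that stood apart on it. A second gamma 1 probe, at chr12:114568594-114568653, was at 4.12 and 4.19 in IgM+ and 3.78 and 3.91 in clone 18 (difference -0.32 ± 0.37; adjusted p = 0.642), so the 2 gamma 1 probes disagree. The AI324046 probe lies between the gamma 1 and mu probes, and stood at 1.40 and 1.76 in IgM+ against 4.01 and 3.96 in clone 18. It rose by 2.40 ± 0.31 (adjusted p = 0.00503). Both calls held without any 1 of the 4 arrays.

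Of 14 probes in the constant region, 12 could be tested, and AI324046 was called higher and mu and gamma 1 were called lower. Over all 29140 probes tested, 8.84% were called, 3.33% higher and 5.51% lower. A probe for gamma 2a, the class A20 is known for, was saturated on both IgM+ arrays, at 6.51 and 6.73, and stood at 6.88 and 6.93 in clone 18. Its difference of 0.28 (adjusted p = 0.439) cannot be read as a level, and it turned to -0.04 with quantile normalization and to -0.08 with the authors' deposited table.

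Of 26 probes described as heavy variable, 12 could be tested and 10 were called lower in clone 18. Of these 10, V9-3, V1-5 and V1-9 passed a filter on dim probes only through the IgM+ line, where they were highest. The other called probes were well above background on both clone 18 arrays. This count of 10 is a description. The sequences below show how alike these probes are, since RNA of 1 variable region can bind several of them. The first pair, on the minus strand at chr12:115776734-115776793 and chr12:116842179-116842238, has the same base at 50 of 60 positions, and the capitals mark their longest shared run of 24 bases.
V1-7: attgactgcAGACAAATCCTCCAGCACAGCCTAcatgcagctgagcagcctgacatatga
V1-67: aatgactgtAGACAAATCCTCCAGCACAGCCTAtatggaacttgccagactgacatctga

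The next 4 probes, on the minus strand at chr12:117202095-117202154, chr12:115962048-115962107, chr12:115751612-115751671 and chr12:116733930-116733989, share a run of 16 bases, marked by capitals.
1-83: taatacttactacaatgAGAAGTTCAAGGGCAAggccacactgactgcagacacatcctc
V1-20: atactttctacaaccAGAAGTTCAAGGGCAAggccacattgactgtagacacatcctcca
V1-5: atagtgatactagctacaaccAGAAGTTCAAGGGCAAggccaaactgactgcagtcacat
V1-63: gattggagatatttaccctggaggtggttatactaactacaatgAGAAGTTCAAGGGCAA

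The last pair sets V14-3, at chr12:115298056-115298115, beside V10-3, at chr12:115761848-115761907, a probe of this class that was not lower in clone 18.
V14-3: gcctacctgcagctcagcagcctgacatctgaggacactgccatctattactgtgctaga
V10-3: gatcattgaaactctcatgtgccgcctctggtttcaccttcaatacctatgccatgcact

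V14-3 was at 2.54 and 3.67 on the IgM+ arrays and at -1.78 and -2.15 on the clone 18 arrays, a fall of 5.07 ± 0.45 (SE; adjusted p = 0.00107). V1-7 was at 2.07 and 3.10 against -2.59 and -2.66, a fall of 5.21 ± 0.53 (adjusted p = 0.00176). V1-67 was at 1.27 and 2.20 against -3.54 and -3.22, a fall of 5.12 ± 0.44 (adjusted p = 0.000905). In these 3 and in 1-83, V1-20 and 1-85 the IgM+ line was 33.59-fold to 37.84-fold above clone 18, and in each replicate 2 was the higher IgM+ array. V1-9 and V9-3 were not well above background in clone 18 and were at least 42.94-fold and at least 10.13-fold lower.

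V10-3 did not separate the lines, at -4.24 and -3.59 against -3.37 and -3.39 (difference 0.54 ± 0.24; adjusted p = 0.22). V1-54 did not pass either, because the clone 18 arrays were at -7.14 and -3.05. Untransfected cells were also low on the called probes, for example at -2.69 and -2.29 for V14-3 and at -3.42 and -3.22 for V1-7. Without either clone 18 array 8 of the 12 probes were called, and without either IgM+ array 10 were. The calls lost were V1-5 without either clone 18 array (adjusted p = 0.0547 and 0.0503), 1-85 without replicate 1 (0.06) and V1-63 without replicate 2 (0.0654).

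Light chains gave a smaller set of differences. Of 35 kappa and lambda probes 16 could be tested, 4 were called lower in clone 18 and none higher. Kappa V12-41 and V9-120 passed the filter on dim probes only through the IgM+ line. They were higher there than in clone 18, so this count is a description. The 2 kappa variable probes with the largest differences among those called are shown, on the minus strand at chr6:69808570-69808629 and chr6:68757412-68757471.
kappa V12-41: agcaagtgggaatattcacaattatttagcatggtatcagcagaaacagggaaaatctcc
kappa V4-90: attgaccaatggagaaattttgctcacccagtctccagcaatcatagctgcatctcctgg

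Kappa V12-41 was at 3.03 and 3.13 on the IgM+ arrays and at -3.57 and -6.83 on the clone 18 arrays, of which the second was not well above background. The fitted difference of -8.28 ± 1.47 (adjusted p = 0.0167) rests on that dim array, and was -9.91 without clone 18 replicate 1 and -6.65 without replicate 2. It was not called without clone 18 replicate 2 (adjusted p = 0.0989) or without IgM+ replicate 1 or 2 (0.0766 and 0.0691). Kappa V4-90 was at -0.14 and -0.09 in IgM+, was not well above background in clone 18 and was at least 24.7-fold lower (adjusted p = 0.000168). Lambda V3 was at -0.73 and 0.34 against -3.84 and -4.26 (adjusted p = 0.00516, and 0.0505 without clone 18 replicate 2), with untransfected cells at -0.79 and 0.33. Kappa V9-120, the last of the 4, was at least 3.31-fold lower, but was not called with the normexp background (difference -0.75). On the called kappa probes untransfected cells were low too. They were at -2.92 and -7.19 for V12-41, -4.31 and -4.44 for V4-90, and -5.65 and -7.00 for V9-120. IgM+ was thus the line that stood apart on the called kappa probes, unlike on lambda V3. The kappa constant probe was saturated on both IgM+ arrays and on clone 18 replicate 1, so it gives no readable difference.

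**Figure D1:**
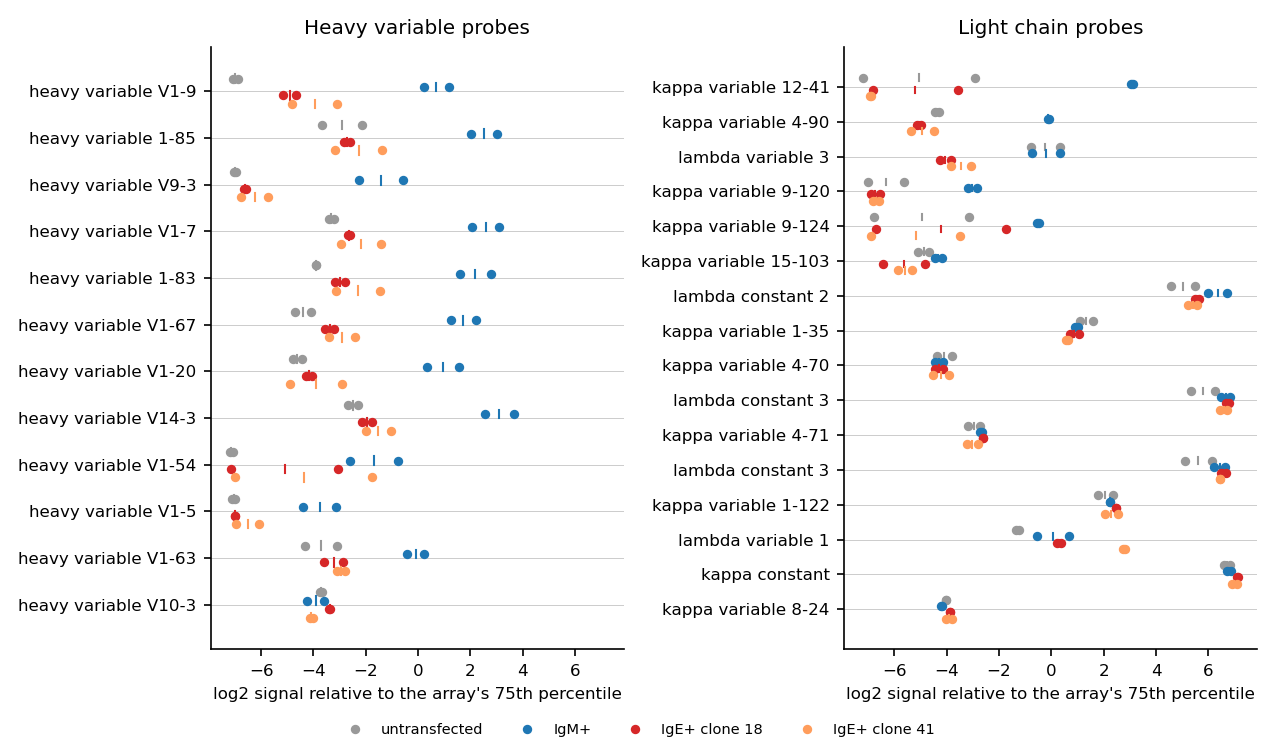
Level of every tested heavy variable probe (left) and light chain probe (right) on each of the 8 arrays, as log2 signal relative to the 75th percentile of the array; points are arrays and ticks are the means of the 2 arrays of a line. The blue IgM+ points of V14-3, at 2.54 and 3.67, stand apart from the clone 18 points at -1.78 and -2.15, and 10 of the 12 heavy variable probes were called lower in clone 18.

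Across the transcriptome, 1826 of 19973 genes tested were called, which is 9.14%. Of these, 679 genes (3.4%) were higher in clone 18 and 1147 genes (5.74%) were lower. Lower genes were thus the more frequent, while the median difference over all genes was 0.06 on the log2 scale and 54.86% of genes lay above 0. At least 4-fold differences were found for 243 genes called higher and 634 called lower. For 136 of the higher and 389 of the lower genes the dimmer line was not well above background on either array, and these have only a lower bound to their fold.

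The count depends on each of the 4 arrays. It was 1025 without IgM+ replicate 1, 1186 without IgM+ replicate 2, 795 without clone 18 replicate 1 and 877 without clone 18 replicate 2. In each case the lower genes outnumbered the higher ones.

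**Figure D2:**
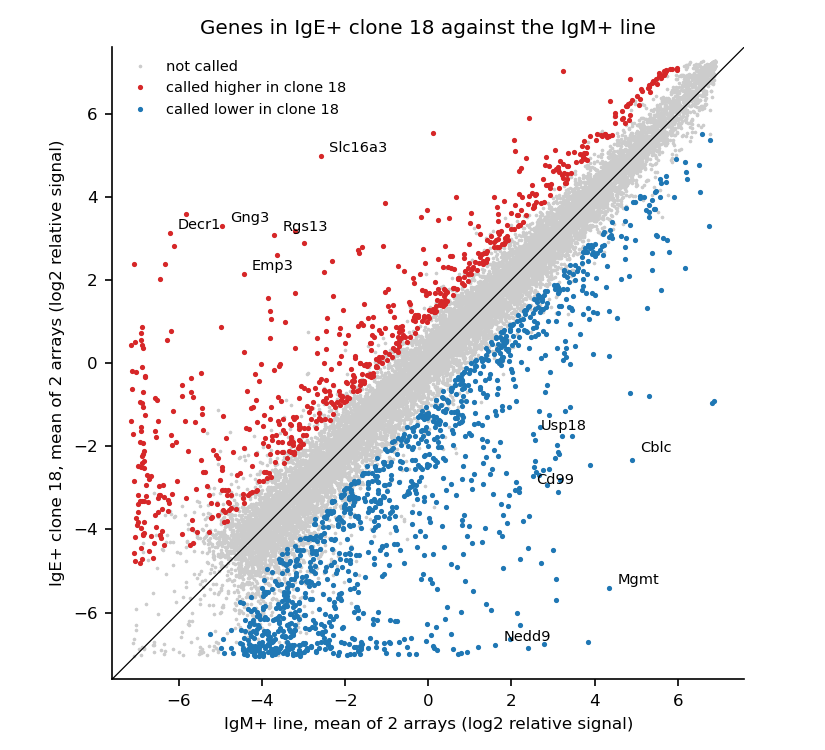
Mean level of each of the 19973 genes on the 2 clone 18 arrays against the mean on the 2 IgM+ arrays, both as log2 signal relative to the 75th percentile; the line marks equal levels. The 679 genes called higher in clone 18 (red) lie above the line and the 1147 called lower (blue) below it, with Slc16a3 and Cblc among the farthest.

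Among genes measured on all 4 arrays, the largest rise was that of Slc16a3, a transporter that exports lactate from glycolytic cells (probe at chr11:120820023-120820082). It was at -3.50 and -1.68 in IgM+ and at 5.22 and 4.72 in clone 18. The rise was 7.56 ± 0.63 (SE), or 188.9-fold, with an adjusted p of 0.000808. Both clone 18 arrays lay far above both IgM+ arrays, although the latter were not close to each other.

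Rgs13, an inhibitor of G protein signalling known from germinal centre B cells (chr1:145985824-145985883), was at -3.21 and -4.22 in IgM+ and 2.98 and 3.19 in clone 18, a rise of 6.80 ± 0.81 (adjusted p = 0.0036). Emp3, an epithelial membrane protein family member (chr7:53175332-53175391), was at -4.45 and -4.43 against 2.14 and 2.12, a rise of 6.57 ± 0.23 (adjusted p = 2.59e-05). Cacna1h, the pore subunit of a T-type calcium channel (chr17:25511235-25511294), was at -3.26 and -4.04 against 2.57 and 2.62, a rise of 6.24 ± 0.30 (adjusted p = 8.19e-05). The 2 arrays of clone 18 were nearly equal in each of these genes. The lines did not overlap in them, but the genes were picked for their large differences.

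The other genes of the 14 largest rises covered a mix of roles. Eppk1, a cytoskeletal linker, rose by 4.88 ± 0.28. Timd2, a receptor for ferritin, rose by 4.78 ± 0.57. Usp11, a deubiquitinating enzyme, rose by 4.29 ± 0.28, and Ng23 (Sapcd1) rose by 4.42 ± 0.31.

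The beta globin genes Hbb-b1 (Hbb-bt) and Hbb-b2 rose by 4.87 ± 0.40 and 4.69 ± 0.40. They share most of their sequence, so their signals may not be separate. Hist3h2ba (H2bu2), a histone H2B gene, rose by 4.86 ± 0.39. Rhox2h, a reproductive homeobox gene, rose by 5.40 ± 0.59. Mbp, the myelin basic protein gene, rose by 6.40 ± 0.31 on its brightest probe, but 1 of its 3 probes lay at -0.15. The rise of Ccrl1, an atypical chemokine receptor, was 5.88 ± 0.97 (adjusted p = 0.0122) and was not called without either clone 18 array or without IgM+ replicate 2 (adjusted p from 0.0604 to 0.0874).

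The largest fall among genes measured on all 4 arrays was that of Cblc, an E3 ubiquitin ligase of the Cbl family that acts on activated tyrosine kinases (chr7:20365069-20365128). It was at 4.88 and 4.93 in IgM+ and at -2.38 and -2.29 in clone 18. The fall was 7.24 ± 0.24 (adjusted p = 1.91e-05), or 150.9-fold, and its 2 probes were both called. Replicate arrays were nearly equal, and the lines lay far apart.

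Cd99, an adhesion glycoprotein of leukocytes, was at 3.90 and 3.89 in IgM+ and -2.13 and -2.78 in clone 18, a fall of 6.35 ± 0.26 (adjusted p = 4.23e-05). Ptpn7, a tyrosine phosphatase of blood cells that acts on MAP kinases (chr1:137041106-137041165), was at 2.59 and 2.27 against -3.54 and -3.80, a fall of 6.10 ± 0.21 (adjusted p = 2.07e-05). Sash3, an adaptor protein of lymphocytes, was at 3.36 and 3.54 against -1.67 and -1.83, a fall of 5.20 ± 0.24 (adjusted p = 6.62e-05). These 3 genes are normally active in blood cells, and each was bright in IgM+ and dim in clone 18.

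Other large falls were in genes better known from other tissues. Gabrr1, a GABA receptor subunit, fell by 6.22 ± 0.30, and Slit1, an axon guidance ligand, fell by 5.80 ± 0.23. Anxa10, an annexin, fell by 6.12 ± 0.49 from 5.34 and 5.29 in IgM+. Akap12, a scaffold for protein kinase A, fell by 5.57 ± 0.46, and Extl1, a glycosyltransferase, fell by 5.36 ± 0.42. Tmem176b fell by 5.99 ± 0.42, Apol10b by 4.69 ± 0.34 and Tmem52 by 4.58 ± 0.43.

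Car2, a carbonic anhydrase, fell by 5.76 ± 0.81 (adjusted p = 0.00662), and was not called without either clone 18 array (0.0593 and 0.0529). Apoc2, the apolipoprotein cofactor of lipoprotein lipase, fell by 5.34 ± 1.22 (adjusted p = 0.0389), and was not called without any 1 of the 4 arrays (0.103 to 0.188).

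**Figure D3:**
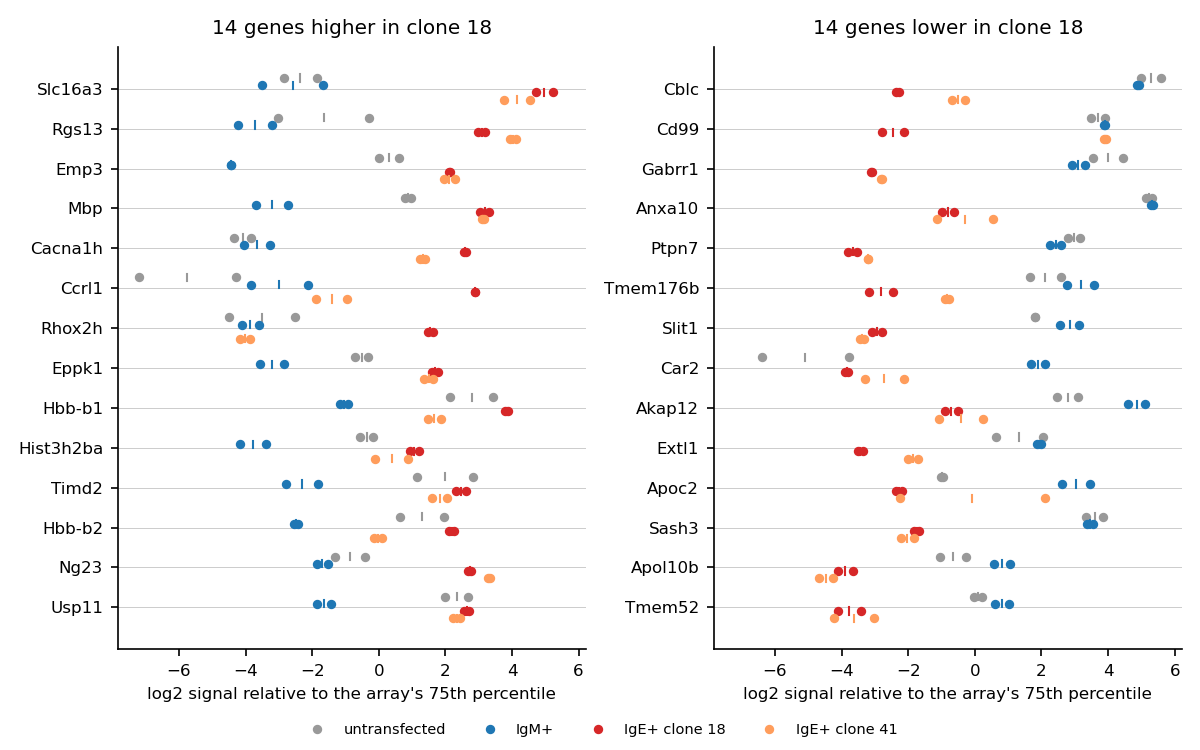
Levels of the 14 genes with the largest rise (left) and the 14 with the largest fall (right) on all 8 arrays, as log2 signal relative to the 75th percentile; points are arrays and ticks are the means of 2 arrays. Slc16a3 goes from -3.50 and -1.68 in IgM+ to 5.22 and 4.72 in clone 18, and Cblc from 4.88 and 4.93 to -2.38 and -2.29.

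Some genes were well above background in only 1 of the 2 lines compared, clone 18 and IgM+. Decr1, an enzyme of the oxidation of unsaturated fatty acids, was at 3.04 and 3.19 in clone 18 and at least 244.8-fold higher than in IgM+. This bound holds for its brightest probe only, since its 2 probes rose by 9.33 and 3.36 on the log2 scale. Gng3, a G protein gamma subunit, was at 3.27 and 3.33 and at least 278.5-fold higher. Bdh1, an enzyme of ketone bodies, and Npc1l1, which takes up sterols in the gut, were at least 114.7-fold and at least 147.7-fold higher. Their adjusted p ran from 3.41e-05 to 0.000112. The bound of Bdh1 is also that of its brightest probe, as its 3 probes rose by 4.85 to 8.48. Slc24a3, a sodium and calcium exchanger, and Armcx2 were at least 198.6-fold and at least 148.2-fold higher.

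In the other direction Mgmt, the enzyme that removes alkyl groups from guanine in DNA, was at 3.87 and 4.85 in IgM+ and at least 549.2-fold lower in clone 18 (adjusted p = 0.000197). Rgs16, an inhibitor of G protein signalling, was at least 185.5-fold lower. Ncam1, a neural adhesion molecule, was at least 142.3-fold lower on its brightest probe, while the differences of its 3 probes ran from -9.26 to -3.66. Klk8, a serine protease, was at least 118.4-fold lower. Both genes were high in IgM+ alone, with untransfected cells at -3.30 and -6.68 for Ncam1 and at -3.66 and -3.28 for Klk8. Nedd9, a docking protein of integrin signalling, was at 1.55 and 1.65 in IgM+ and at least 81.23-fold lower. Klhl13 and Ccdc113 were at least 223.6-fold and at least 124.3-fold lower.

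In the gene lists below, counts are read against the 9.14% of all genes that were called. Lists and their medians describe these 4 arrays, and no test of a list as a whole was made.

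Among 34 genes of B cell receptor signalling, none was called higher and 4 (11.8%) were called lower, with a median difference of 0.00. Fyn, a Src family kinase, was at 3.35 and 3.49 in IgM+ and -0.08 and 0.03 in clone 18, a fall of 3.44 ± 0.33 (adjusted p = 0.00144). Cd79a, the signalling chain of the receptor, was at 5.34 and 5.04 against 3.90 and 4.10, a fall of 1.19 ± 0.20 (adjusted p = 0.012). Its partner Cd79b was at 6.71 and 6.88 against 6.80 and 7.05, saturated on both IgM+ arrays, with a difference of 0.13 ± 0.19 (adjusted p = 0.722) that turned to -0.16 with quantile normalization.

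Bank1, an adaptor of receptor signalling, and Ptk2b, a focal adhesion family kinase, fell by 1.46 ± 0.26 and 1.31 ± 0.24. The kinases that start the signal did not pass, with differences of 0.08 for Lyn, 0.20 for Syk and 0.41 for Btk. Fyn was the 1 gene of the 4 called in all leave-one-out fits. Cd79a was not called without either clone 18 array or without IgM+ replicate 1 (adjusted p 0.0562 to 0.0935), Bank1 not without clone 18 replicate 1 or IgM+ replicate 2 (0.105 and 0.0868), and Ptk2b not without any 1 of the 4 arrays (0.0614 to 0.114).

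Of 24 co-receptors and inhibitory receptors 3 were called higher and 5 lower, or 33.3%. Without 1 of the 4 arrays none was higher and 3 or 4 were lower. Cd72, an inhibitory receptor, was at 3.52 and 3.85 against 1.87 and 1.64, a fall of 1.93 ± 0.18 (adjusted p = 0.0013). Untransfected cells were at 1.76 and 1.74, near clone 18, so IgM+ was the line that stood apart in Cd72. Cd5, another inhibitory receptor, fell by 2.43 ± 0.26 (adjusted p = 0.00241). The lines did not overlap in either gene, and both calls held without any 1 array.

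Cr2, a complement receptor of B cells, fell by 1.86 ± 0.31, and was not called without either clone 18 array or without IgM+ replicate 1 (adjusted p 0.068 to 0.097). Fcgr2b, the inhibitory IgG receptor, rose by 1.13 ± 0.19, and Siglecg, an inhibitory lectin, by 1.21 ± 0.27. Neither of these was called without any 1 of the 4 arrays (adjusted p 0.0532 to 0.0906 for Fcgr2b and 0.115 to 0.199 for Siglecg), and Siglecg was also lost without either clone 41 array (0.0677).

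The list of Cbl ligases and adaptors, which attach ubiquitin to activated receptors and kinases, had 5 of 15 genes called lower and none higher, with a median of -0.37. Beside Cblc, Nedd4l, an E3 ligase of membrane channels, was at 1.68 and 1.28 in IgM+ and -2.53 and -2.81 in clone 18, a fall of 4.15 ± 0.24 (adjusted p = 0.000172). Sh3kbp1, the adaptor CIN85 that binds Cbl, fell by 1.64 ± 0.15 (adjusted p = 0.00118). Cbl itself was at 2.31 and 2.24 against 0.85 and 1.29, a fall of 1.21 ± 0.22 (adjusted p = 0.0166) that was not called without clone 18 replicate 1 or either IgM+ array (0.0736 to 0.107). Between 3 and 4 of the 15 genes were called when 1 of the 4 arrays was left out.

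Of 27 tyrosine phosphatases 3 were called lower and 1 higher, and none was higher and 1 or 2 were lower without 1 of the 4 arrays. Ptpn7 had the largest fall of these. Dusp10, a phosphatase of stress kinases, fell by 2.40 ± 0.53 (adjusted p = 0.035), and was not called without any 1 of the 4 arrays or without either clone 41 array (0.0647 to 0.183).

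Transcription factors of B cells were called in both directions, 3 of 37 higher and 4 lower, and between 1 and 2 higher and 0 and 2 lower without 1 of the 4 arrays. Ebf1, which sets B cell identity together with Pax5, was at 3.61 and 2.91 in IgM+ and 0.06 and 0.40 in clone 18, a fall of 3.03 ± 0.42 (adjusted p = 0.0065, and 0.0625 without clone 18 replicate 1). Pax5 did not pass, at -0.10 and 0.14 against 0.50 and 0.52 (difference 0.49; adjusted p = 0.335). Runx3 rose by 1.87 ± 0.21 (adjusted p = 0.00295) and was called without any 1 of the 4 arrays.

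Irf4, which acts in B cell activation and plasma cell formation, was at 1.05 and 0.59 against -1.44 and -1.32, a fall of 2.20 ± 0.43 (adjusted p = 0.0215). Id3 and Foxo1 fell by 1.82 ± 0.37 and 1.73 ± 0.29, and Klf4 rose by 1.54 ± 0.30. These 4 calls were lost without any 1 of the 4 arrays (adjusted p 0.0502 to 0.139). Prdm1, the plasma cell regulator, was at -3.08 and -4.33 against -3.72 and -3.60 and did not pass (difference 0.04 ± 0.82; adjusted p = 0.982).

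In the plasma cell list, 3 of 11 genes were called lower and none higher, and between 0 and 1 when an array of the pair was left out. Prg2 was at 0.36 and 0.55 in IgM+ and at least 36.75-fold lower in clone 18 (adjusted p = 0.00625, and 0.0611 without clone 18 replicate 1). Sdc1, the surface marker of plasma cells, fell by 1.72 ± 0.38 (adjusted p = 0.0334), and this call was lost without any 1 of the 4 arrays or either clone 41 array (0.0629 to 0.19). Irf4 was the third.

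The labelled cell type was checked against B cell markers. All 13 markers measured were well above background on both arrays of each line. Their summed linear level ran from 463.9 to 509.8 on the IgM+ arrays and from 484.2 to 527.2 on the clone 18 arrays. A summed linear level follows the brightest markers, and 3 of the 13 were saturated on at least 1 of the 4 arrays. Of these 13 markers 3 were called lower, Ebf1 and Cd79a among them, and none higher. The median difference was -0.35.

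The list with the most genes called higher was that of glycolysis and hypoxia. Of 37 genes 10 (27.0%) were called higher and none lower, 33 lay above 0, and the median difference was 0.64. Eno2, an enolase, was at -1.50 and -0.69 in IgM+ and 3.25 and 2.40 in clone 18, a rise of 3.92 ± 0.37 (adjusted p = 0.00129). Ddit4, a stress gene that restrains mTOR, was at 2.11 and 2.02 against 5.66 and 5.05, a rise of 3.29 ± 0.44 (adjusted p = 0.0055, and 0.0537 without clone 18 replicate 1). Tpi1, triosephosphate isomerase, was at 4.83 and 4.89 against 6.91 and 6.74, a rise of 1.97 ± 0.30 (adjusted p = 0.00971). Both clone 18 arrays were above both IgM+ arrays in each.

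Slc2a1, the glucose transporter, rose by 1.10 ± 0.25 and Pfkp, a phosphofructokinase, by 1.31 ± 0.24. Bnip3 and Ankrd37, known as targets of the hypoxia factor, rose by 2.59 ± 0.54 and 2.59 ± 0.49. Pkm2, pyruvate kinase, and Adm, adrenomedullin, rose by 1.32 ± 0.30 and 1.83 ± 0.39. Hif1a itself was not called (difference -0.16; adjusted p = 0.691). Of the 37 genes 9 were saturated on at least 1 array, Pkm2 on 1 of clone 18 and Gapdh on all 4. Saturation caps a level, and whether it hid a difference was not tested. The number called was 4 without either IgM+ array, 2 without clone 18 replicate 1 and 3 without clone 18 replicate 2. With the authors' deposited value table it was 5.

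The promoter of Slc16a3, the list's leading gene, is shown because the hypoxia factors bind the core motif ACGTG, which is in capitals. It is the 250 bases before the RefSeq start, plus strand, at chr11:120948817-120949066 in build GRCm38.p6, and holds the motif 27 and 14 bases before the start.
Slc16a3: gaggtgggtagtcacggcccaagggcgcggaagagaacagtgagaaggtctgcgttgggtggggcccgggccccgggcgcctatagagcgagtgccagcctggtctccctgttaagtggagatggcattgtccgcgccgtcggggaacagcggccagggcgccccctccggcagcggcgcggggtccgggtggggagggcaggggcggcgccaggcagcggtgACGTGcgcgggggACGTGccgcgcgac

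On either strand and at any listed start, 19 of the 34 matched members of the list had ACGTG in this window, 6 of the 10 called higher and 13 of the 24 not called. Of all 27025 RefSeq genes with a promoter sequence, 18.5% did. The called and uncalled members thus held it about equally often.

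The list with the most genes called lower was the type I interferon response. Of 37 genes 10 were called lower and 1 higher, 11 lay above 0, and the median difference was -0.29. Among the 10 were 4 genes not well above background in clone 18, which were bright enough to be tested through other lines, so the count is a description. Usp18, a protease that removes ISG15 and dampens interferon signalling, was at 2.69 and 2.33 in IgM+ and -1.67 and -1.74 in clone 18 (probe at chr6:121220874-121220933), a fall of 4.22 ± 0.27 (adjusted p = 0.000272). Xaf1, an interferon-induced apoptosis factor, was at 0.96 and 0.65 against -2.72 and -2.87, a fall of 3.60 ± 0.23 (adjusted p = 0.00028). Trim30a was at 1.07 and 0.99 against -1.79 and -1.69, a fall of 2.77 ± 0.29 (adjusted p = 0.00217). The lines did not overlap, and these 3 calls held without any 1 array.

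Irgm1, an immunity-related GTPase, fell by 1.86 ± 0.28, Ifi27l2a by 1.66 ± 0.25 and Ifih1, an RNA sensor, by 1.12 ± 0.16. Ifit1, Mx2, Ifit3 and Rsad2 were not well above background in clone 18 and had bounds of at least 2.79-fold, 2.14-fold, 1.53-fold and 1.55-fold lower. Bst2, or tetherin, was the 1 member called higher, with a rise of 1.38 ± 0.31 (adjusted p = 0.0358). This call was lost without any 1 of the 4 arrays or either clone 41 array (0.0669 to 0.17). The signal transducers did not pass, with differences of 0.22 for Stat2 and 0.44 for Irf9. The number called lower was 6 and 7 without IgM+ replicate 1 and 2, and 4 and 5 without clone 18 replicate 1 and 2. It was 6 with the deposited table and 5 with the normexp background.

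Promoters of 2 called members are shown with the interferon response motif, GAAA followed by any 2 bases and a second GAAA, on either strand, in capitals. The Ifit1 window, plus strand, is at chr19:34640639-34640888 and the Irgm1 window, minus strand, at chr11:48871421-48871670, both GRCm38.p6 and both the 250 bases before the RefSeq start. The matches begin 104 and 85 bases before the start of Ifit1, and 30 and 24 before that of Irgm1, where they overlap.
Ifit1: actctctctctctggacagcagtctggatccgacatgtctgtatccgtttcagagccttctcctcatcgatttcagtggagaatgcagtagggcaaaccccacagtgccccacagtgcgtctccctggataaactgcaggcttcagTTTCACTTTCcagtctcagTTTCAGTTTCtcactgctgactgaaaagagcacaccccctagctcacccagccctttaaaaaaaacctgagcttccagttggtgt
Irgm1: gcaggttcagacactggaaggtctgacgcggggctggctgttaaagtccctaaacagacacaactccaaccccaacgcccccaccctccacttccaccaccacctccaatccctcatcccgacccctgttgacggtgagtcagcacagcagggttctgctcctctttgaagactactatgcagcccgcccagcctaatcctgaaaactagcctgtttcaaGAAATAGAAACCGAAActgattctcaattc

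Of 29 matched members of the list 11 held the motif, 5 of the 7 called lower, the 1 called higher and 5 of the 21 not called. The share over all RefSeq genes with a promoter was 3.46%.

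Inhibitors of G protein signalling were called in the largest share of any pathway list, 8 of 12 genes, with 2 higher and 6 lower. Rgs13 rose and Rgs16 fell, as given above. Rgs12 was at 1.76 and 1.47 in IgM+ and -0.90 and -1.40 in clone 18, a fall of 2.77 ± 0.36 (adjusted p = 0.00472). Rgs9 was at 3.56 and 3.29 against 1.45 and 1.18, a fall of 2.11 ± 0.25 (adjusted p = 0.00331). Rgs2 fell by 2.06 ± 0.37 and Rgs11 rose by 1.93 ± 0.44, and neither was called without any 1 of the 4 arrays (adjusted p 0.0587 to 0.207). Without any 1 of the 4 arrays, 1 gene of the list was called higher and 3 lower.

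Of 14 chemokine and lipid positioning genes 3 were called lower and 1 higher, and no more than 1 was called in all without 1 of the 4 arrays. Cxcr5, the receptor that guides B cells into follicles, was at 4.38 and 4.30 in IgM+ and 0.01 and 0.33 in clone 18, a fall of 4.17 ± 0.77 (adjusted p = 0.0187). S1pr1, the receptor for exit from lymphoid tissue, was at 2.03 and 2.15 against -0.36 and -0.76, a fall of 2.65 ± 0.52 (adjusted p = 0.0223). Both calls were lost without any 1 of the 4 arrays (0.0754 to 0.135), although the 4 arrays did not overlap in either gene. Cxcl10, a chemokine, fell by 1.65 ± 0.32, and Cxcr3, a chemokine receptor, was at least 1.64-fold higher. The SE is shared with the untransfected arrays, which were 5.44 and 2.70 for Cxcr5.

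Of 18 integrins and adhesion molecules, 6 were called lower and 1 higher, and between 3 and 5 were lower without 1 of the 4 arrays. Itga6, an integrin of laminin binding, was at 2.81 and 2.33 against -1.96 and -1.74, a fall of 4.42 ± 0.54 (adjusted p = 0.00396), and 1 of its 2 probes was called. Itgb3 was at 4.65 and 4.43 against 0.85 and 1.29, a fall of 3.47 ± 0.26 (adjusted p = 0.000503). Cd97 (Adgre5), an adhesion G protein-coupled receptor, fell by 2.64 ± 0.33 (adjusted p = 0.00405). Itgal, the LFA-1 alpha chain, rose by 1.29 ± 0.28, and this call was lost without any 1 of the 4 arrays or either clone 41 array (0.0558 to 0.171).

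In the actin and motility list 2 of 49 genes were called higher and 4 lower, with 1 higher and 2 lower without either clone 18 array, and Nedd9 had the largest fall. Basp1, a membrane protein of growing cell edges, was at -2.50 and -2.06 against 1.85 and 1.37, a rise of 3.89 ± 0.27 (adjusted p = 0.000368). Cdc42ep3, an effector of Cdc42, was at 0.29 and -0.11 against -3.08 and -3.28, a fall of 3.27 ± 0.30 (adjusted p = 0.00113).

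Calcium channels and pumps had 3 of 32 genes higher and 6 lower. Besides Cacna1h, Cacng7, an auxiliary channel subunit, rose by 3.57 ± 0.35 (adjusted p = 0.00144), and Cacnb1 was at least 12.11-fold higher. Cacna1s, the L-type channel of muscle, was at 5.04 and 4.91 in IgM+ and 2.90 and 3.01 in clone 18, a fall of 2.02 ± 0.25 (adjusted p = 0.00389). Between 3 and 4 were lower when 1 of the 4 arrays was left out, and 2 with the normexp background.

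Fc receptors bind the constant region of antibodies, and 4 of 12 were called higher and none lower, with 2 higher without any 1 of the 4 arrays. Fcgr3 was at 0.92 and 0.83 in IgM+ and 2.15 and 2.27 in clone 18, a rise of 1.34 ± 0.15 (adjusted p = 0.00313). Fcgr4, an activating receptor for IgG and IgE, was at -2.21 and -2.44 in clone 18 and at least 5.63-fold higher (adjusted p = 0.000279). Of the called genes, Fcrla (chr1:172848103-172848162) and Fcgr2b (chr1:172890988-172891047) lie close together on chromosome 1. That chromosome had the highest share of called genes, 15.0%. Whether these calls follow the position or the receptor family was not tested. Fcer2a, the low-affinity IgE receptor CD23, did not pass, at -1.82 and -2.51 against -2.26 and -3.16 (difference -0.54 ± 0.59; adjusted p = 0.61). Fcrla rose by 1.47 ± 0.34 (adjusted p = 0.0402), and its call, like that of Fcgr2b, was lost without any 1 of the 4 arrays (0.0836 to 0.2).

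Antigen presentation and co-stimulation split, with 2 of 29 genes higher and 4 lower. Cd86, the co-stimulatory ligand of CD28, was at -4.42 and -4.30 in IgM+ and -0.77 and -0.59 in clone 18, a rise of 3.68 ± 0.20 (adjusted p = 0.000131). Tapbp, or tapasin, rose by 1.40 ± 0.19. Nlrc5, the transactivator of MHC class I genes, was at 2.49 and 2.82 against -1.10 and -1.18, a fall of 3.80 ± 0.29 (adjusted p = 0.000549), with 1 of its 2 probes called. B2m, the light chain of MHC class I, was at 6.36 and 6.67 against 4.67 and 4.88, a fall of 1.74 ± 0.21 (adjusted p = 0.0036), with 1 IgM+ array saturated, which caps its level. These calls held without any 1 array. Fitted on the 4 arrays alone, 5 genes of the list were higher and 5 lower.

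Among 24 TNF superfamily genes 4 were called lower and none higher, and 2 were lower without clone 18 replicate 1. Cd70, the ligand of CD27, was at -0.53 and -1.33 in IgM+ and at least 14.08-fold lower in clone 18 (adjusted p = 0.00473), although it was not called with the deposited table (0.105) or the normexp background (0.0947). Tnfrsf13c, the BAFF receptor, fell by 1.70 ± 0.38 (adjusted p = 0.0366), and this call was lost without any 1 of the 4 arrays or either clone 41 array (0.0645 to 0.191).

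Of 33 cytokine and receptor genes 1 was higher and 3 lower, and 1 was lower without clone 18 replicate 2. Stat5b, a transducer of cytokine signals, was at 2.43 and 2.56 against 4.22 and 4.35, a rise of 1.79 ± 0.16 (adjusted p = 0.00106). Il2rg, the common gamma chain of interleukin receptors, was at 1.57 and 1.22 against -2.19 and -2.32, a fall of 3.65 ± 0.28 (adjusted p = 0.000528). Jak3, the kinase bound to that chain, fell by 1.70 ± 0.26 (adjusted p = 0.0087), and was not called without clone 18 replicate 2 or IgM+ replicate 2 (0.0542 to 0.0572). Cd69, an early activation marker, was at 0.34 and -0.78 against -3.97 and -3.22, a fall of 3.38 ± 0.40 (adjusted p = 0.00341).

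Of 28 BH3-only proteins and effectors of cell death 2 were called higher and 2 lower, or 14.3%, and between 0 and 1 were called in all without 1 of the 4 arrays. Bcl2l11, or BIM, the BH3-only protein, was at 0.18 and 0.53 in IgM+ and 2.09 and 2.52 in clone 18, a rise of 1.95 ± 0.42 (adjusted p = 0.0321). That call was lost without any 1 of the 4 arrays or either clone 41 array (0.0602 to 0.172), and the untransfected arrays stood at -1.02 and 0.32. Casp4, an inflammatory caspase, was at 1.73 and 0.89 against -2.89 and -2.94, a fall of 4.22 ± 0.65 (adjusted p = 0.00945), and was not called without either clone 18 array or IgM+ replicate 1 (0.0575 to 0.0736). Hax1, a mitochondrial protein known to bind the tail of membrane IgE, did not pass, at 6.23 and 6.20 against 6.26 and 6.44 (difference 0.13; adjusted p = 0.69), and its sign turned to -0.07 with quantile normalization.

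In the cell cycle list 3 of 39 genes were higher and none lower. Spdya, an activator of cyclin-dependent kinases, rose by 3.33 ± 0.38 (adjusted p = 0.00295), and the inhibitors Cdkn2b and Cdkn2c by 1.67 ± 0.28 and 1.30 ± 0.21. The calls of both inhibitors were lost without clone 18 replicate 1 or 2 or IgM+ replicate 2, and that of Cdkn2c also without IgM+ replicate 1 (0.0602 to 0.0918). Phlda3, a p53 target, was at 0.83 and 0.71 in clone 18 and at least 48.18-fold higher, while Rrm2b, another target, fell by 2.09 ± 0.31, and these were the 2 of 22 p53 targets called. Of 41 genes of the unfolded protein response 1 was called, P4hb, which rose by 1.46 ± 0.20 (adjusted p = 0.00545). Of 39 histone genes 2 were higher and 2 lower, none of the latter without IgM+ replicate 1 or either clone 18 array, and Hist1h1a (H1f1) rose by 3.67 ± 0.34 (adjusted p = 0.00125).

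Cholesterol and lipid synthesis had the highest median of the 26 pathway lists, 0.76, with 36 of 40 genes above 0. In the fit on all 8 arrays 3 genes (7.5%) were called, and in a fit on the 4 arrays alone 12 were higher and 1 lower. The 3 were Npc1l1 and Tm7sf2 higher and Acacb lower. Tm7sf2 was not called without any 1 of the 4 arrays or either clone 41 array (adjusted p 0.0745 to 0.237), nor Acacb without IgM+ replicate 1 or either clone 18 array (0.0658 to 0.0737). Hmgcs1, Lss and Fdft1, enzymes of cholesterol synthesis, had differences of 1.32, 1.86 and 1.62 and did not pass (adjusted p = 0.213, 0.136 and 0.126). Of 30 genes of fatty acid oxidation and ketone bodies, Decr1 and Bdh1 were called higher and none lower.

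**Figure D4:**
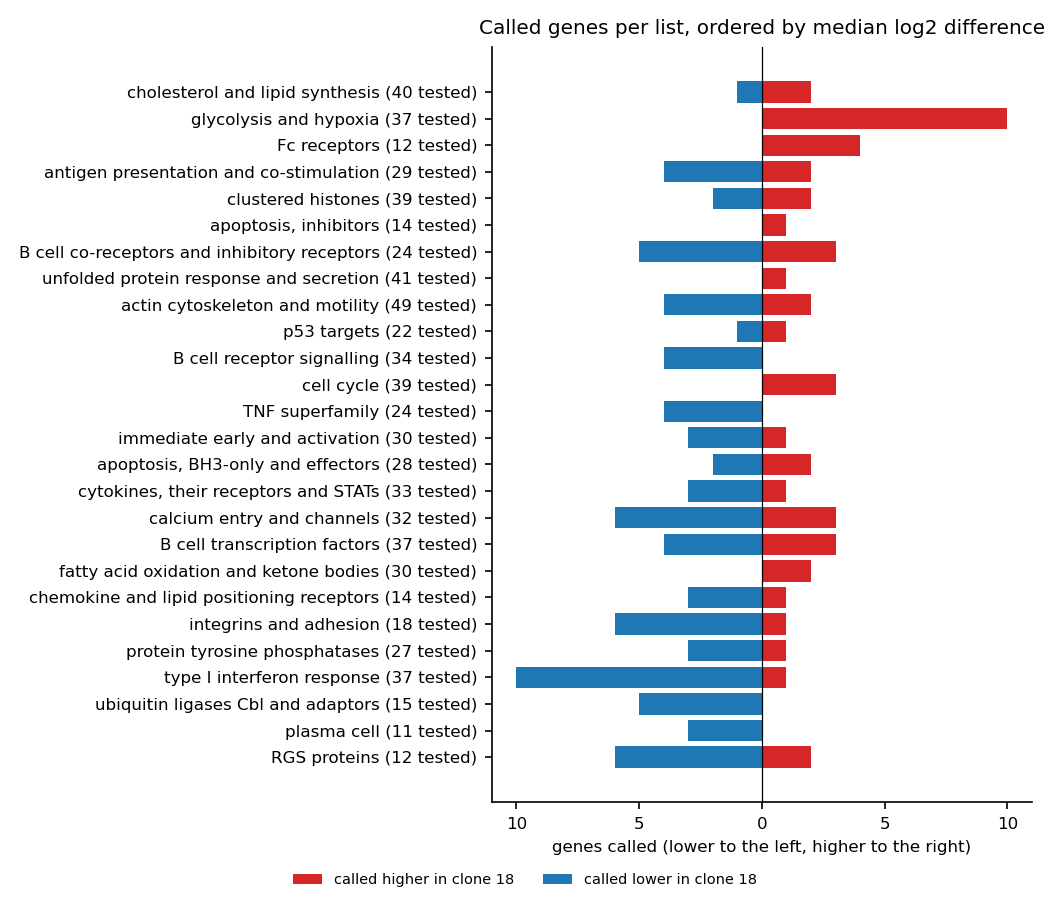
Number of genes called higher (red, to the right) and lower (blue, to the left) in clone 18 for the 26 pathway lists, ordered from the highest median log2 difference at the top to the lowest at the bottom, with the number tested in brackets. Glycolysis and hypoxia has 10 genes called higher and none lower, and the type I interferon response 1 higher and 10 lower; over all genes 3.4% were called higher and 5.74% lower.

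Markers of other cells were measured because bulk RNA cannot tell fewer cells of a type from less RNA per cell. T cell markers summed to between 16.47 and 16.57 on the IgM+ arrays and to between 20.55 and 21.4 on the clone 18 arrays, with 9 and 8 of 13 well above background. Of these, Cd3g was at -1.39 and -0.62 in IgM+ and at least 13.35-fold lower in clone 18, and Cd5 fell. Over the 10 T cell markers tested the median difference was -0.67, and -0.05 with the normexp background. Myeloid markers summed to between 54.76 and 60.55 in IgM+ and between 53.97 and 75.61 in clone 18, and Cd14, Cd163, Lyz2, S100a8 and S100a9 were not above background in either. Of 8 myeloid markers tested 2 were higher and 2 lower. Cd68, a lysosomal protein, and Fcgr3 rose by 2.38 ± 0.22 and 1.34 ± 0.15, Emr1 (Adgre1), a macrophage marker, fell by 2.57 ± 0.53, and Ly6g, a neutrophil marker, was at least 1.93-fold lower. Emr1 was not called without IgM+ replicate 2 or either clone 18 array (adjusted p 0.0861 to 0.168).

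Erythroid markers summed to between 11.49 and 12.34 in IgM+ and between 32.52 and 32.98 in clone 18, through the beta globin genes and Epor, while Hba-a1 differed by -0.07. Epor was not called without clone 18 replicate 1 or 2 (adjusted p = 0.0617 and 0.0504). NK, mast cell and stromal markers had 5 of 9, 6 of 9 and 3 of 9 members not above background in either line. The part of other cells in the results was not tested.

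Clone 41, the other IgE+ line, was compared with clone 18 directly. A difference between the 2 clones was called in 71 of 19973 genes, or 0.355%. Of the genes called between clone 18 and IgM+, 306 higher and 465 lower had a symbol and were measured unsaturated on all 4 arrays. The difference between the clones was called in 3 and 7 of them. Cd99 was the largest of these, at 3.89 and 3.94 in clone 41, equal to IgM+, and 6.37 above clone 18 (adjusted p = 0.000158). Rhox2h stood at -3.88 and -4.16 in clone 41, level with IgM+, and 5.57 below clone 18 on the log2 scale (adjusted p = 0.0171). In both genes clone 41 stood at the level of IgM+, and clone 18 apart. A gene not called between the clones may still differ. Ccrl1 was at -1.88 and -0.94 in clone 41 against 2.90 and 2.90 in clone 18 (difference -4.31; adjusted p = 0.284).

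Cd6, a surface receptor of lymphocytes, was at 0.05 and 0.20 in clone 41, against -1.68 and -2.18 in clone 18 and -0.31 and -0.17 in IgM+. Stat5b was at 2.59 and 2.66 in clone 41, again at the IgM+ level. Il2rg at 0.09 and -0.34, Parm1 at 4.48 and 3.94 and Tyro3 at 2.65 and 2.89 stood between clone 18 and IgM+ or near IgM+. Cblc was at -0.68 and -0.31 in clone 41, above clone 18 by 1.84 ± 0.24 (adjusted p = 0.0459) but still far below IgM+. Luzp4 was lower in clone 41, at -6.95 and -6.79, than in clone 18, at -1.11 and -0.99.

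The IgM+ line was also set against untransfected cells. The arrays of IgM+ enter both comparisons, so the values are given side by side only. IgM+ differed from untransfected cells in 406 genes, or 2.03%. Of the 306 genes higher in clone 18, 58 were called between IgM+ and untransfected cells, and of the 465 lower genes 27 were.

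Emp3 was at 0.60 and 0.02 in untransfected cells, at -4.45 and -4.43 in IgM+ and at 2.14 and 2.12 in clone 18. Usp11 was at 1.98 and 2.69, -1.44 and -1.87, and 2.72 and 2.55 in the same order. Cd86 was at 0.10 and -0.34, -4.42 and -4.30, and -0.77 and -0.59. In Usp11 and Cd86 clone 18 was near the untransfected level, and IgM+ was the line that stood apart. IgM+ was also the lowest of these 3 lines in Timd2 and the beta globin genes.

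Car2 was at -3.78 and -6.39 in untransfected cells, 2.12 and 1.69 in IgM+ and -3.90 and -3.80 in clone 18. Ly6d, a surface marker of the B lineage, was at -3.10 and -3.32, 0.31 and 0.02, and -2.39 and -2.30. Both were high in the IgM+ line alone among these 3 lines. Slc16a3 and Cacna1h were low in untransfected cells as in IgM+, at -2.86 and -1.87 and at -4.34 and -3.84. Among these 3 lines clone 18 stood apart in both genes. Clone 41 was high as well, at 4.53 and 3.77 for Slc16a3 and at 1.38 and 1.25 for Cacna1h. Rgs13 was at -0.29 and -3.02 in untransfected cells, of which 1 array was above both IgM+ arrays by far.

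**Figure D5:**
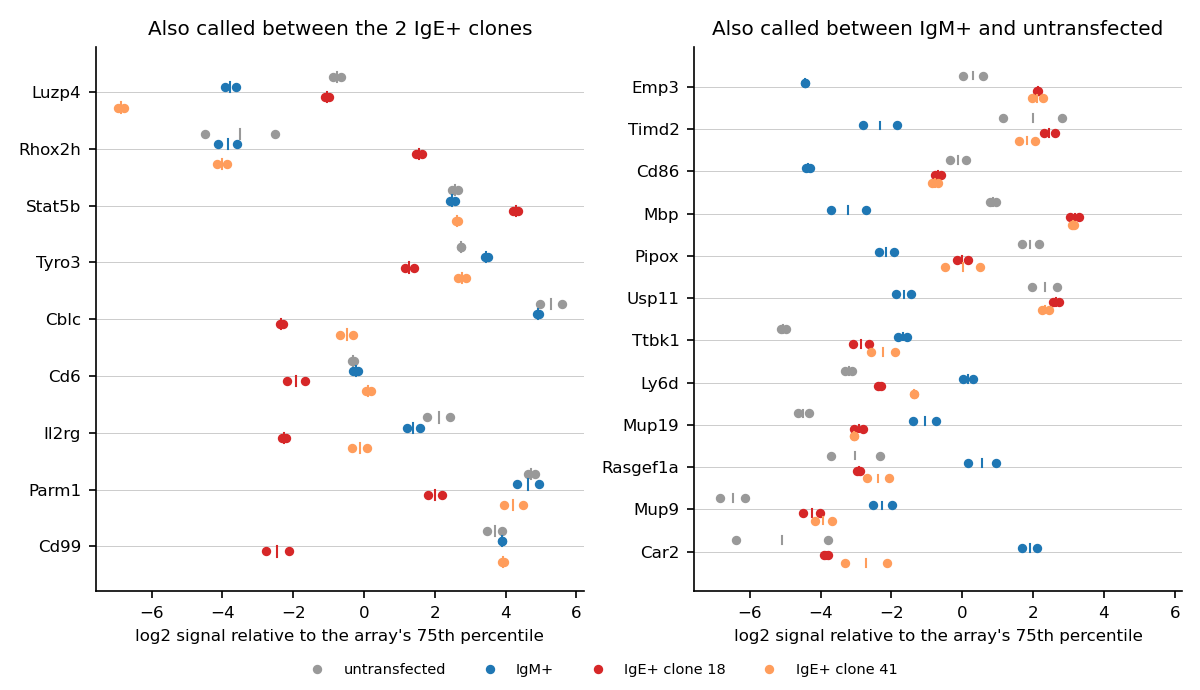
Levels on all 8 arrays of genes called between clone 18 and IgM+ that were also called between the 2 IgE+ clones (left) or between IgM+ and untransfected cells (right), as log2 signal relative to the 75th percentile, for 9 and 12 genes; points are arrays and ticks are the means of 2 arrays. Cd99 is at 3.89 and 3.94 in clone 41 against -2.13 and -2.78 in clone 18, and Emp3 is at -4.45 and -4.43 in IgM+ against 0.60 and 0.02 in untransfected cells.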

How the data were processed

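Cy3-labelled RNA of 8 samples was hybridised to Agilent mouse arrays, 4 lines with 2 arrays each. Per the file headers, Agilent Feature Extraction subtracted the background and detrended the processed intensity of each spot, and did not normalize between arrays. The value table deposited by the authors holds log2 values with column medians of 6.04 to 6.05, and ranked probes nearly as the mean intensity did (Spearman 0.9959 to 0.9973). Its normalization is not given in the sources used here.

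Control spots and spots with an outlier flag were left out. The log2 of the processed intensity was centred on the 75th percentile of each array and replicate spots were averaged per probe. Probes stayed in where both arrays of at least 1 line were well above background, 29140 of 55681 probes, and the brightest probe stood for a gene, which gave 19973 genes. Gene names are those of the array, with the RefSeq symbol in brackets where it differs. limma 3.58.1 in R 4.3.3 fitted the 4 lines on all 8 arrays, with 4 residual degrees of freedom, and the script was tested on simulated data.

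Named genes were the 14 largest rises and falls, up to 6 bounds and up to 4 genes per list in each direction, fixed receptor genes, and genes also called between other lines. Most of the named genes that were called were thus picked for their differences, so a lack of overlap between the lines in them is a description. Where a gene was not well above background in the dimmer line, its fold was bounded by the lowest signal well above background. The comparison, the lists and the motifs were chosen with earlier results of these data known. The promoters shown, and genes named outside that rule (other list members, called or not), were chosen after their values were seen. Alternatives covered scaling, background, filters, the fit, the call and each array left out; those for immunoglobulin probes were chosen after seeing the data. Some genes that meet these rules are not reported here.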

Additional observations from a re-analysis of the deposited data

Results flagged for a closer look

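These 9 genes, called between clone 18 and IgM+, differed between the 2 IgE+ clones by limma's test over all genes, where 0.355% of genes were called. They were picked for their difference from IgM+, and the same clone 18 arrays enter both contrasts, so the 2 contrasts are not independent. Clone 41 minus clone 18 on the log2 scale was 6.37 for Cd99, 2.20 for Parm1, 2.12 for Il2rg, 2.06 for Cd6, 1.84 for Cblc and 1.49 for Tyro3. It was -5.82 for Luzp4, -5.57 for Rhox2h and -1.66 for Stat5b. The adjusted p ran from 5.72e-05 for Luzp4 to 0.0463 for Parm1, and both arrays of clone 41 lay on the same side of both arrays of clone 18 in each gene.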

How the results depend on the processing

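Of the alternatives to the count of 1826 genes (679 higher, 1147 lower), the deposited table gave 1117 genes (664 lower), no filter on dim probes 1178 (417 higher, 761 lower), a filter on all 4 arrays 709 lower, the normexp background 688 lower, and a test against 2-fold itself (treat) 584 (177 higher, 407 lower). A fit on the 4 arrays alone gave 2298, and 2448 with a replicate block. Leaving out 1 array gave 795 to 2227 genes, 251 to 853 higher and 544 to 1374 lower; both untransfected arrays give the same count, since 1 remaining array adds nothing to the spread. Among called genes the share higher was 37.2%, and 30.3% to 44.0% over the alternatives. Of 149 named genes called, 0 changed sign in any alternative, and 66 were not called under treat. Among genes that did not pass, the sign turned for Cd79b (-0.16 with quantile normalization, -0.18 with the deposited table), Hax1 (-0.07 and -0.17) and Prdm1 (-0.59 without IgM+ replicate 2 and -0.02 without clone 18 replicate 2, in a range up to 0.67). Replicate numbers were not taken to pair the samples, since not every pair of lines passed 0.1: the correlation of replicate differences was 0 between IgM+ and clone 18 and -0.06 to 0.35 for the others, of which 4 passed. With the replicate number as a block 1847 genes were called, 1709 of them shared with the 1826. The cause of these changes was not tested. With 2 arrays a line the number of arrays limits the precision, and dim probes have only bounds.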

Other observations

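Called genes were not spread evenly over the chromosomes. On chromosome 1, 55 of 1157 genes tested were called higher in clone 18 and 118 lower, or 15.0%, and the median difference was -0.18. On chromosome 6 the share was 12.9%, with 59 higher and 68 lower of 981, and on chromosome X it was 11.7%. The lowest shares among the autosomes were 6.57% on chromosome 5 and 6.62% on chromosome 16. Genes described above that lie on chromosome 1 include Rgs13, Phlda3, Fcgr2b and Fcrla, which were higher in clone 18. Ptpn7, Rgs16, Rgs2 and Cacna1s, which were lower, lie there too.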
